A study of Mus musculus with 2 samples.

Results

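Genes of the actin, myosin and intermediate filament systems were compared in RNA of the cortical fibers and of the epithelium of the mouse lens. The members were all probes whose only platform gene symbol began with Act and a, b, g or n followed by a digit, with Arpc, with Myo, Myh or Myl followed by a digit, or with Tpm or Krt followed by a digit, together with Vim, Des, Gfap, Nes, Cfl1, Cfl2, Pfn1, Pfn2, Ezr, Rdx, Msn, Gsn and Vil1. This gave 93 probes for 90 genes of the 13709 named genes with a value on both arrays. The actin system had 23 genes, the myosins 33 and the intermediate filament genes 34. Lenses of mice aged 13 days (5 mice in the series) had been pulled apart with forceps into the capsule with its attached epithelium and the cortical fibers. Poly(A) RNA of each fraction was hybridized to 1 CodeLink array. The sources used here do not give strain, sex or whether lenses were pooled. The free-text description of both samples names fetal liver, so the lens label was checked: 6 of 8 measured lens fiber markers were brighter in cortex by 3-fold or more, and 7 of 8 lens epithelial markers were so in epithelium. After quantile normalization, loess on brightness or centring on ribosomal protein genes the fiber count was 3 of 8, without the crystallin genes Cryaa, Cryba1 and Crygs, and the epithelial count stayed at 7 of 8. The marker lists were chosen with earlier results of these data known, so these counts are not an independent check.

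Actin filaments are polymers of actin monomers, whose growth is branched by the Arp2/3 complex, fed by profilin, cut by cofilin and gelsolin, stabilized by tropomyosin and cross-linked by α-actinin. Myosins pull on these filaments, and class II myosins form contractile bundles of heavy chains with essential and regulatory light chains. Intermediate filaments are separate rope-like polymers. Keratins assemble as pairs of a type I and a type II chain, whereas vimentin, desmin and GFAP can form filaments of a single kind of chain. In the lens, vimentin is the classical intermediate filament of the epithelium and young fibers, and mature fibers also build beaded filaments from filensin and phakinin.

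Each value is a normalized intensity, expressed relative to the median of its array. A floor was set at 0.5 of the array median, and a value under it is given as measured but has no order. A gene was counted as higher in 1 population when its intensity there was 3-fold or more that of the other, with values under the floor raised to it, and when that array was at or above its median. Where the dimmer array lay under the floor, the fold is a lower bound written as "at least". An alternative floor at the array median is called the higher floor. With 1 array per population there is no replicate and no test, and the only error the data give is technical. It is the spread of the log2 difference between probes of the same gene, with a pooled SD of 1.10 and a median SD of 0.59 over 558 genes. In RNA of whole tissue fractions, fewer cells of a type and less RNA per cell cannot be told apart. The dim end of the arrays also differed, with a lower quartile of 0.367 in cortex and 0.217 in epithelium. Of 9 measured liver and erythroid markers the summed intensity was 7.20 in cortex and 6.14 in epithelium. Of these, Apoa1, Ttr and Serpina1a lay under the floor on both arrays and 6 cleared it on 1 or both. Epb42, of the red cell membrane skeleton, was 3.08-fold brighter in cortex (2.09 against 0.678). Epb42 did not pass with the higher floor or after centring on ribosomal protein genes. Klf1 had a bound of at least 2.22-fold toward cortex, and Hbb-bt one of at least 2.50-fold toward epithelium. Hba-a1 (1.39 in cortex and 1.79 in epithelium), Apoa2 (0.708 and 0.888) and Afp (0.660 and 0.680) were slightly brighter in epithelium.

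Of the 90 genes, 10 passed the 3-fold limit toward cortex and 9 toward epithelium. Those in cortex included Acta1 (skeletal muscle actin), Myo1f (a class I myosin), the keratins Krt34 and Krt8, and Tpm2. Those in epithelium included Krt19, Tpm1, Arpc1b of the Arp2/3 complex and Myh9, the heavy chain of non-muscle myosin IIA. Over all 13709 genes, 9.41% were higher in cortex, 8.17% in epithelium and 17.6% in either direction, against 11.1%, 10.0% and 21.1% of the members. The share of members past the limit was thus near the background. A further 37 members were measured on both arrays with a difference under 3-fold, 9 had a bound under 3-fold, and 25 were at the floor on both. Among the 65 members that cleared the floor on 1 or both arrays, the median log2 difference (cortex minus epithelium) was 0.42, against 0.07 over all genes above the floor. That median has no settled sign. It was -0.03 after quantile normalization, 0.04 after loess on brightness and -0.48 after centring on ribosomal protein genes. That centring subtracts the same amount from every gene above the floor, so the members' median stood 0.35 above that of all genes both with and without it, against 0.07 above after quantile and 0.09 after loess. Over all genes that cleared the floor on both arrays, these scalings moved the median from 0.03 to -0.11, -0.09 and -0.87. The split of member calls, 10 in cortex to 9 in epithelium (52.6% in cortex), became 10 to 12 after quantile or loess normalization and 5 to 14 (26.3%) after centring on ribosomal protein genes. The corresponding share of cortex calls over all genes went from 53.5% to 17.9% with that centring.

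**Figure D1:**
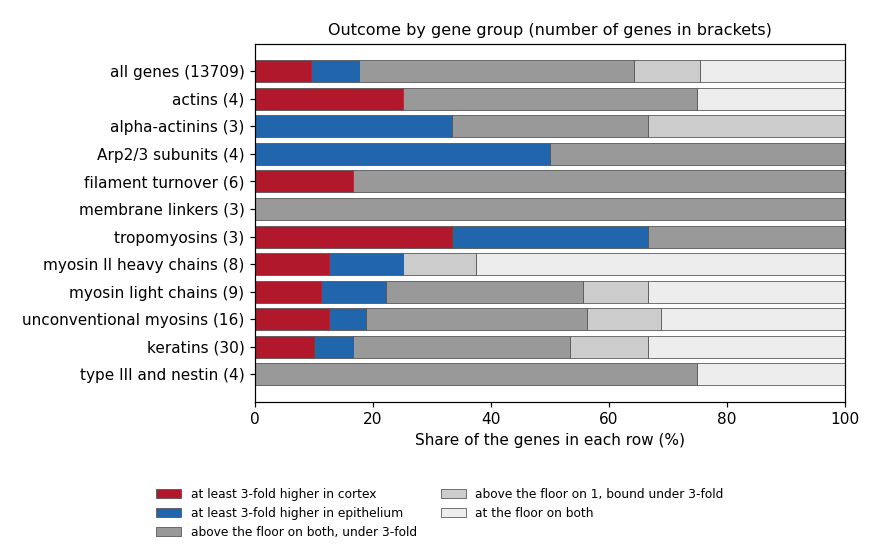
Share of genes in each group (x axis, percent; number of genes in brackets) that passed the limit toward cortex or toward epithelium, lay under it, or were at the floor. Myosin II heavy chains had 5 of 8 genes at the floor on both arrays, and the Arp2/3 subunits had 2 of 4 higher in epithelium and none in cortex.

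Promoter sequence is shown first because many actin and muscle genes are known targets of serum response factor, a transcription factor that binds the CArG box. This motif reads CC, then 6 letters that are each A or T, then GG, and it has the same form on both strands. In the 250 bases before the RefSeq start site (build GRCm38.p6), it was found in 9 of the 88 promoters listed for 73 of the member genes (10.2%). It was in 1.34% of the 13810 promoters listed for genes on the array and in 1.47% of all 32851 promoters. By system, 4 of 21 actin system genes with a listed promoter, 4 of 29 myosin genes and 1 of 23 intermediate filament genes had the motif. Of the 9 genes, 3 passed the limit toward cortex (Acta1, Vil1 and Myl7), none in epithelium, 4 were under the limit and 2 were at the floor on both arrays. The 16 called members with a listed promoter split evenly, with 8 calls toward each population. Vil1 (log2 1.42) and Myl7 (0.92) lost their calls after centring on ribosomal protein genes, and Myl7 also with the higher floor. Only Acta1 of the 3 kept its call in each scaling and with the higher floor. A link between the motif and cortex calls was not tested. A match describes these letters only and is not evidence that the factor binds there. For the 3 genes higher in cortex the 250 bases before the start site follow, 5′ to 3′ on the strand of the gene, with the CArG box in capitals. They lie at chr8:123894776-123895025 (minus strand) for Acta1, chr1:74409134-74409383 (plus strand) for Vil1 and chr11:5898783-5899032 (minus strand) for Myl7.
Acta1: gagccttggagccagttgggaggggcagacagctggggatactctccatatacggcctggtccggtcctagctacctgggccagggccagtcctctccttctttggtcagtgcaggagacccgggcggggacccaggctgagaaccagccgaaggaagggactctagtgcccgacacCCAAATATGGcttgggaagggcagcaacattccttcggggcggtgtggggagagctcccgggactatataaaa
Vil1: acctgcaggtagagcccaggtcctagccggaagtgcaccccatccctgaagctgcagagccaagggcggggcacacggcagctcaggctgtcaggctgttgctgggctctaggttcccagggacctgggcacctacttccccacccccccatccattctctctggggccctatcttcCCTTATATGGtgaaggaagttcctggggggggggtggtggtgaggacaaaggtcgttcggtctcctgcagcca
Myl7: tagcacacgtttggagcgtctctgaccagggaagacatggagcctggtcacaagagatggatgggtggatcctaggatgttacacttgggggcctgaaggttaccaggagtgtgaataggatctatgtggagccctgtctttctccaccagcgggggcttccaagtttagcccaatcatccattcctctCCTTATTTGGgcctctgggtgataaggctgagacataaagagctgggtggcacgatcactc
The motif began 73 bases before the start site in both Acta1 and Vil1, and 61 bases before it in Myl7.

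The other 6 motifs are shown with up to 25 bases on either side, so that those of genes expressed in both populations can be set beside them. They lie at chr11:120348551-120348610 (minus) for Actg1, chr10:128493025-128493084 (minus) for Myl6, chr6:113377863-113377897 (plus) for Arpc4, chr9:70207293-70207349 (plus) for Myo1e, chr9:110763568-110763627 (plus) for Myl3 and chr11:99422260-99422315 (minus) for Krt12.
Actg1: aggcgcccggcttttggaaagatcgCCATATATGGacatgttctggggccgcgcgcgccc
Myl6: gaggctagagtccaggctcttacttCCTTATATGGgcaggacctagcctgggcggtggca
Arpc4: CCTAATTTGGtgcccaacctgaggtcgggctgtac
Myo1e: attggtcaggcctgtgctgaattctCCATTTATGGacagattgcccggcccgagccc
Myl3: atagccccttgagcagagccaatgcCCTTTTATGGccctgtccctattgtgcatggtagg
Krt12: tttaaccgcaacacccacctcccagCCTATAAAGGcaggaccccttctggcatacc
The Krt12 match contains TATAAA, the core of a TATA box, which the other 8 do not. Actg1, Myl6 and Arpc4 were above the floor in both populations with differences under 3-fold, Myo1e was near the floor (0.552 in cortex and 0.215 in epithelium), and Myl3 and Krt12 were under the floor on both arrays. The same box was therefore found beside genes higher in cortex, genes under the limit and genes at the floor. Srf itself stood at 1.77 in cortex and 1.48 in epithelium, its cofactor gene Mrtfa at 1.29 and 1.60, and Mrtfb and Myocd lay under the floor on both arrays. Fhl1 (10.2 in cortex and 3.57 in epithelium, 2.85-fold) and Ablim1 (3.89 and 1.70, 2.28-fold) were brighter in cortex. Fhl2 and Fhl3 lay under the floor on both arrays. None of the 8 measured genes of the serum response factor list passed 3-fold.

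Of the 4 actins that match the symbol rule, Acta1 was the only gene past the limit. Acta1, the actin of skeletal muscle, stood at 17.1 in cortex and 0.741 in epithelium, which is 23.1-fold (log2 4.53). The epithelial value lay between the floor and the array median, and with the higher floor the difference was at least 17.2-fold. Actg1, cytoplasmic γ-actin, stood at 549 in cortex and 326 in epithelium (1.68-fold). Its other probe read 5.40 and 4.98, so the probes' log2 differences were 0.75 and 0.11. Acta2, the actin of smooth muscle, read 65.1 and 41.2 (1.58-fold), and Actg2, the enteric form, was under the floor on both arrays. For Actg1 the sign of the difference was negative after quantile (-0.43), loess (-0.52) and ribosomal centring (-0.16), and for Acta2 it also depended on the scaling, so neither has a settled direction. Actb, cytoplasmic β-actin, falls outside the symbol rule and read 605 in cortex and 260 in epithelium (2.32-fold, under the limit). Actin genes are near-identical in sequence and probe sequences were not used, so their separate values are uncertain.

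The α-actinins, which cross-link actin filaments, differed by isoform. Actn4, a form of non-muscle cells, stood at 1.07 in cortex and 3.89 in epithelium, 3.65-fold higher in epithelium. Actn3, of fast muscle, read 4.31 and 3.66, and Actn2, of striated muscle, read 0.737 in cortex and lay under the floor in epithelium. Neither of these passed the limit.

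Subunits of the Arp2/3 complex, which starts branches on existing filaments, had 2 of 4 genes higher in epithelium and none in cortex. Arpc1b stood at 1.26 in cortex and 9.11 in epithelium (7.24-fold, log2 -2.86). Arpc5 stood at 4.77 and 17.0 (3.57-fold). The alternative form of the former, Arpc1a, read 23.0 in cortex and 18.5 in epithelium (1.24-fold), and Arpc4 read 3.15 and 4.51 with its other probe under the floor on both arrays. The calls of Arpc1b and Arpc5 were the same after quantile, loess and ribosomal centring and with the higher floor. The 2 exchangeable Arpc1 subunits thus had unlike differences, which for Arpc1a lay well inside the pooled probe SD of 1.10.

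Genes of filament turnover were mostly measured on both arrays and under the limit, with 1 of 6 higher in cortex. Vil1, villin, the bundling and severing protein of microvilli, stood at 4.94 in cortex and 0.986 in epithelium (5.01-fold). This call was lost after centring on ribosomal protein genes, where its log2 difference was 1.42. Gsn, gelsolin, which severs and caps filaments, stood at 151 in cortex and 66.7 in epithelium (2.27-fold). The profilins, which deliver actin monomers, were both under the limit, and Pfn1 has no settled direction. Pfn1 read 153 in cortex and 82.0 in epithelium (1.86-fold), and Pfn2 read 35.9 and 75.0 (2.09-fold brighter in epithelium). Pfn2 passed 3-fold toward epithelium after quantile (log2 -1.80), loess (-1.70) and ribosomal centring (-1.97), while the difference of Pfn1 was near 0 in these scalings (-0.01, 0.05 and -0.01). The cofilins, which cut aged filaments, were close on the 2 arrays: Cfl1 read 8.79 and 6.56, and Cfl2 read 40.2 and 46.8.

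The 3 linkers of actin to the plasma membrane were all under the limit. Ezr, ezrin, stood at 36.5 in cortex and 78.4 in epithelium (2.14-fold brighter in epithelium), and it passed 3-fold after quantile (log2 -1.86), loess (-1.75) and ribosomal centring (-2.01). Rdx, radixin, read 19.0 and 16.7. Msn, moesin, was near the floor on both arrays (0.523 and 0.708).

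Tropomyosins, which lie along actin filaments and set which proteins can bind them, showed opposite differences among the 3 genes. Tpm2 stood at 28.0 in cortex and 5.15 in epithelium (5.43-fold). Tpm1 lay under the floor in cortex (0.255) and at 5.02 in epithelium, at least 10.1-fold higher there, or at least 5.03-fold with the higher floor. Tpm3 read 6.42 and 10.3 and did not pass. The Tpm1 call was the same in every scaling tried, while Tpm2 fell just short of the limit after centring on ribosomal protein genes (log2 1.53). Each tropomyosin gene gives many spliced forms, and which of them the probes read was not tested.

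**Figure D2:**
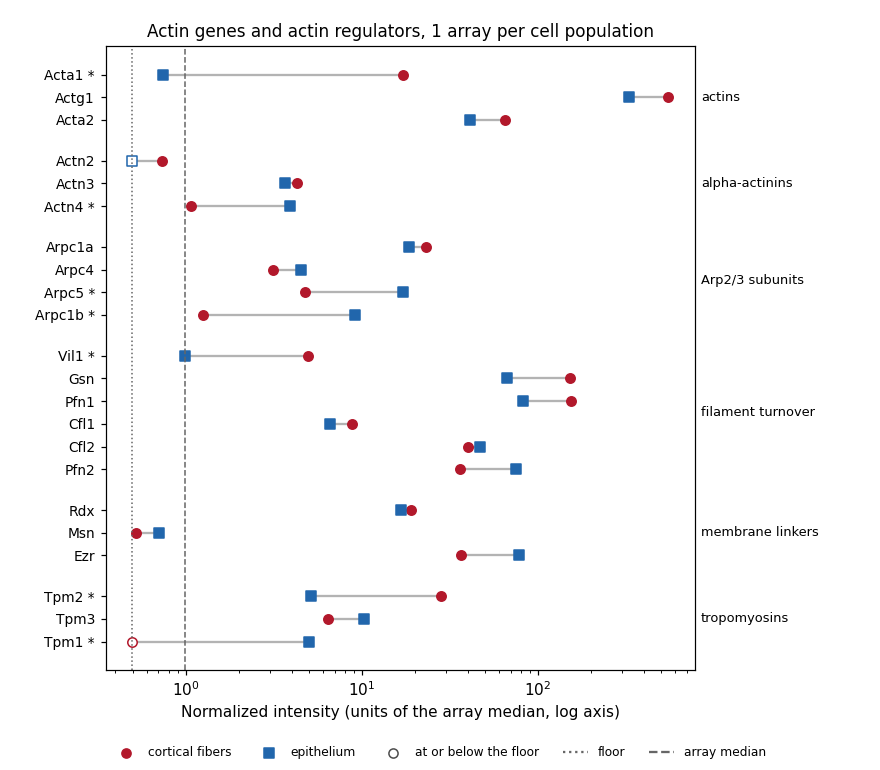
Normalized intensity (x axis, log scale, units of the array median) of the actin system genes that cleared the floor on 1 or both arrays, with circles for cortical fibers and squares for epithelium, 1 array each. Asterisks mark genes past 3-fold; Acta1, Vil1 and Tpm2 lie to the right in cortex, and Actn4, Arpc1b, Arpc5 and Tpm1 in epithelium.

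Of the 8 myosin II heavy chain genes, 1 was higher in epithelium and 1 in cortex. Myh9, the heavy chain of non-muscle myosin IIA, stood at 17.0 in cortex and 76.0 in epithelium (4.47-fold, log2 -2.16). Its call was kept in each scaling, with log2 differences from -3.07 to -2.16. Myh3, the heavy chain of embryonic skeletal muscle, stood at 2.94 in cortex and under the floor in epithelium (0.373), a bound of at least 5.89-fold toward cortex. The higher floor lowered that bound to at least 2.94-fold, under the limit. Myh8, the perinatal form, read 0.738 in cortex and was under the floor in epithelium. Myh2 of fast muscle, Myh6 and Myh7 of heart, Myh11 of smooth muscle and Myh10, non-muscle myosin IIB, were under the floor on both arrays.

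The light chains of non-muscle myosin were measured on both arrays and under the limit. Myl6, the essential chain, stood at 181 in cortex and 132 in epithelium (1.37-fold), and Myl12b, a regulatory chain, at 164 and 101 (1.62-fold). The signs of both turned negative after quantile, loess and ribosomal centring (Myl6 -0.57, -0.49 and -0.45; Myl12b -0.24, -0.20 and -0.21). Myl12a, the other regulatory chain, was 2.67-fold brighter in epithelium (22.3 against 59.4), and it passed the limit in those scalings, with log2 differences of -2.05, -1.92 and -2.32. Myl12a and Myl12b are close in sequence and may share signal. Among light chains of striated muscle, Myl2, the regulatory chain of ventricle and slow muscle, lay under the floor in cortex (0.264) and at 5.58 in epithelium, at least 11.2-fold higher there and at least 5.59-fold with the higher floor. Myl7, the atrial regulatory chain, read 1.77 in cortex and 0.4994 in epithelium (3.55-fold). The latter value is just above the floor of 0.4987, and Myl7 did not pass with the higher floor or after ribosomal centring (log2 0.92). Myl4 read 0.982 in cortex and was under the floor in epithelium. Myl1, Myl3 and Myl10 were under the floor on both arrays.

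Muscle genes outside the member rule are given beside these values. Of 16 measured striated muscle markers, 3 passed the limit toward cortex and none toward epithelium: Cox6a2 (2.80 against 0.619), Atp2a1 (2.75 against 0.731) and Mb (1.57 against 0.510). None of the 3 passed with the higher floor or after ribosomal centring. The list summed to 140 in cortex and 86.0 in epithelium, of which Eno3, a muscle enolase, made up 121 and 77.7. Actc1, cardiac actin, read 3.36 and 2.26, Tnni2 read 3.15 and 2.34, and Ckm read 0.609 and 0.301. Pvalb (1.18), Tnnt2 (1.14) and Tnnt3 (0.770) were above the floor in cortex alone. Their bounds were at least 2.36-fold, 2.29-fold and 1.54-fold toward cortex. Tnnt1 was above it in epithelium alone (0.597, at least 1.20-fold). Tnnc2, Tnnc1, Ryr1, Casq1 and Myog were under the floor on both arrays. Of 9 smooth muscle and pericyte markers, Smtn was higher in epithelium (at least 4.01-fold, not past the limit with the higher floor). The list summed to 9.61 in cortex and 19.6 in epithelium, of which Pdgfrb made up 4.46 and 12.9. Tagln read 1.41 and 2.75, Synpo2 read 1.43 and 0.852, and Kcnmb1 read 0.927 and 0.408. Cnn1, Lmod1, Rgs5 and Cspg4 were under the floor on both arrays. The part of muscle cells in the values of Acta1, Acta2, Myh3, Myl2 and Myl7 was not tested.

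Of 16 unconventional myosins, which move cargo or tether membranes as monomers or dimers, 2 were higher in cortex and 1 in epithelium. Myo1f, a class I myosin best known from immune cells, stood at 66.0 in cortex and 4.61 in epithelium (14.3-fold, log2 3.84), and the call was kept in each scaling. Coro1a, Was and Lcp1, actin regulators of blood cells named here after their values were seen, read 0.358, 0.587 and 0.755 in cortex and 0.150, 0.298 and 0.552 in epithelium, at or near the floor on both arrays. They are not a marker list of immune cells, and the part of such cells in the Myo1f values was not tested. Myo7b, a myosin of intestinal microvilli, read 4.57 and 1.48 (3.09-fold), just inside the limit, and did not pass after ribosomal centring (log2 0.72). Myo7a, a myosin of sensory hair cells and pigment epithelium, stood at 0.792 in cortex and 3.18 in epithelium (4.01-fold). The higher floor made the difference of Myo7a a bound of at least 3.18-fold.

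The other unconventional myosins did not pass. Myo19, which binds mitochondria, was 2.20-fold brighter in cortex (15.3 against 6.94), and Myo9b was 2.06-fold brighter in epithelium (7.46 against 15.4). Myo18a (7.57 and 4.80) and Myo18b (10.6 and 7.78) differed by less than 1.6-fold. Myo5b had a bound of at least 2.36-fold toward epithelium (1.18 there). Both Myo9b (log2 -1.95) and Myo5b (-2.15) passed toward epithelium after ribosomal centring, but not after quantile or loess normalization. Myo5a and Myo9a were above the floor but under the median on both arrays, Myo1e was above it in cortex alone, and Myo1a, Myo1c, Myo3a, Myo10 and Myo15 were under the floor on both.

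**Figure D3:**
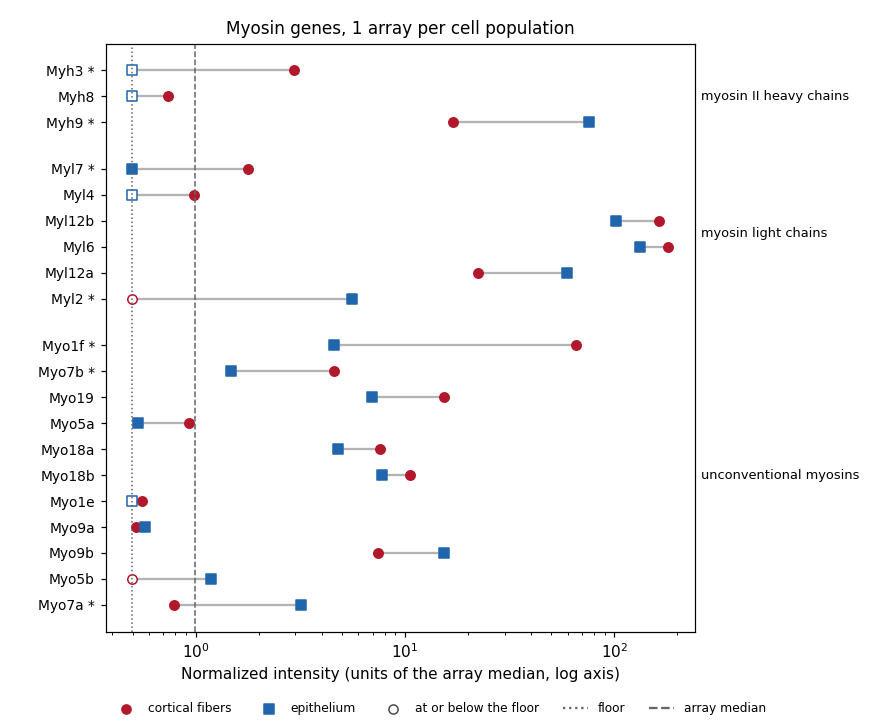
Normalized intensity (x axis, log scale, units of the array median) of the myosin genes that cleared the floor on 1 or both arrays, with circles for cortical fibers and squares for epithelium, 1 array each. Myo1f (66.0 against 4.61) and Myh9 (17.0 against 76.0) lie far apart in opposite directions, and open symbols are values at or below the floor.

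Of 30 keratins, 3 were higher in cortex, 2 in epithelium, 11 were above the floor on both arrays and under the limit, 4 had a bound under the limit and 10 were under the floor on both. The called shares of 10.0% in cortex and 6.67% in epithelium were near the 9.41% and 8.17% over all genes. Keratins of simple epithelia split. Krt19, a type I chain, lay under the floor in cortex (0.222) and at 15.7 in epithelium, at least 31.5-fold higher there and at least 15.8-fold with the higher floor. Krt7, a type II chain, read 0.517 in cortex and 1.81 in epithelium (3.50-fold), and it did not pass with the higher floor. Krt8, a type II chain, went the other way, with 9.27 in cortex and 0.743 in epithelium (12.5-fold, at least 9.29-fold with the higher floor). Krt18, the usual type I partner of Krt8, was under the floor in cortex (0.126) and at 0.983 in epithelium, a bound of at least 1.97-fold toward epithelium.

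Keratins of hair and of stratified epithelia followed. Krt34, a type I hair keratin, stood at 52.6 in cortex and 3.83 in epithelium (13.7-fold, log2 3.78), and this call was kept in each scaling. Krt31, another type I hair keratin, stood at 92.1 and 32.2 (2.86-fold), the member just outside the limit, with log2 differences of 0.86, 0.87 and 0.61 after quantile, loess and ribosomal centring. Krt33a, of the same family, was under the floor on both arrays, as were the type II hair keratins Krt81 and Krt82, while Krt84 read 5.66 and 3.44. Krt6a, a type II keratin of injured and stratified epithelia, read 12.1 in cortex and 3.53 in epithelium (3.44-fold), and its type I partner Krt16 read 10.9 and 4.85 (2.25-fold). Krt6a did not pass after ribosomal centring (log2 0.88). Of the paired keratins of basal keratinocytes, Krt5 read 0.288 and 0.681. Krt14 read 1.03 in cortex, just above the array median, and was under the floor in epithelium (0.217), a bound of at least 2.07-fold toward cortex. Krt12, the keratin of corneal epithelium, and Krt10, Krt13 and Krt17 were under the floor on both arrays. Krt222 (34.1 and 27.1), Krt79 (5.70 and 3.33), Krt75 (4.40 and 3.12), Krt4 (3.62 and 3.68), Krt20 (1.68 and 1.07) and Krt71 (1.57 and 1.72) differed by less than 1.8-fold.

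Markers of surface epithelium are given beside the keratins. Of 11 measured, Lor (13.2 against 3.44) and Sprr1b (9.41 against 3.09) were brighter in cortex by 3-fold or more, and no marker was so in epithelium. Neither passed after ribosomal centring, and Sprr1b did not pass after quantile normalization. The list summed to 52.7 in cortex and 25.1 in epithelium. Of the 11, Trp63, Dsc3, Dsg1a, Ivl, Flg and Sprr1a were under the floor on both arrays. The other 5 were above it on both and brighter in cortex, among them Aldh3a1 (20.1 against 12.9), Perp (6.65 against 3.13) and Sfn (2.41 against 2.03), which were under the limit. The part of surface epithelium in the keratin values was not tested.

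Vimentin and the other non-keratin filaments were all under the limit. Vim stood at 306 in cortex and 286 in epithelium (1.07-fold), at percentile 99.1 and 99.6 of the genes of each array. Its log2 difference of 0.10 became -0.98 after quantile normalization, -1.06 after loess and -0.81 after ribosomal centring, so no direction can be given. Gfap, the filament of astrocytes, read 4.43 and 2.17 (2.04-fold), and Nes, nestin, of neural precursors, read 3.69 and 3.18. Des, the filament of muscle, was under the floor on both arrays. Beside them, Bfsp1 (filensin, of the beaded filament) stood at 738 in cortex and 12.5 in epithelium. It was the only gene past the limit among 15 measured genes of other intermediate filaments and their linkers. Among the linkers, the desmosome genes Dsp and Jup were under the floor on both arrays, Pkp4 read 78.9 and 42.2, Ppl (periplakin) read 13.9 and 20.8, and Macf1, a linker of actin and microtubules, read 26.6 and 23.9.

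**Figure D4:**
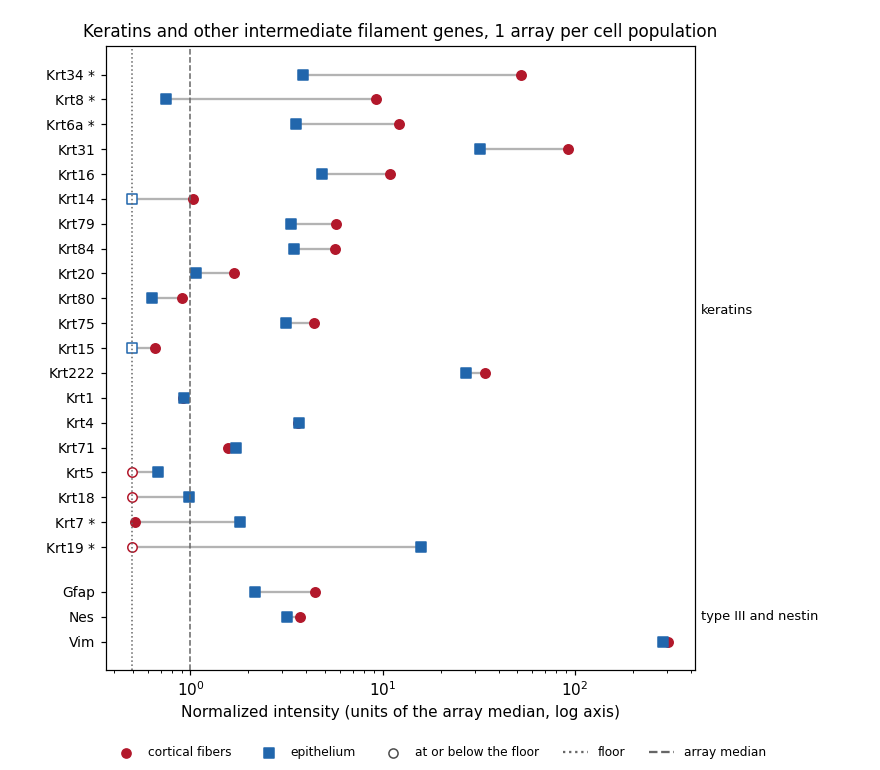
Normalized intensity (x axis, log scale, units of the array median) of the intermediate filament genes that cleared the floor on 1 or both arrays, with circles for cortical fibers and squares for epithelium, 1 array each. Krt34 and Krt8 lie to the right in cortex and Krt19 in epithelium, while the symbols of Vim overlap at 306 and 286.

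The wider set of actin regulators gave counts in both directions. Of 54 measured genes outside the symbol rule, 6 were higher in cortex (11.1%) and 7 in epithelium (13.0%), 26 did not pass and 15 were under the floor on both arrays. Over all genes the shares were 9.41% in cortex and 8.17% in epithelium. Wasf2, which activates the Arp2/3 complex, stood at 84.8 in cortex and 7.58 in epithelium (11.2-fold). The bundling protein gene Pls1 (148 against 17.5, 8.43-fold), the cofilin kinase gene Tesk1 (16.6 against 2.22, 7.49-fold) and Fscn1, the filament bundler fascin (8.63 against 1.58, 5.46-fold), were higher in cortex too, of which Fscn1 did not pass after ribosomal centring (log2 1.54). In epithelium, Zyx, zyxin of focal adhesions, stood at 7.79 against 1.25 (6.26-fold) and the cofilin phosphatase gene Ssh3 at 4.15 against 0.859 (4.83-fold). A plastin relative of Pls1, Pls3, was also higher there (13.9 against 3.33, 4.17-fold), as were Coro1b (14.0 against 3.49) and Limk2, another cofilin kinase (17.3 against 4.81). The remaining genes higher in cortex were Pxn (94.0 against 25.6, 3.68-fold) and Cap2 (8.66 against 2.71, 3.19-fold). Pxn did not pass after quantile, loess or ribosomal centring, and Cap2 did not pass after ribosomal centring. The remaining genes higher in epithelium were Daam2 and Slc9a3r1, and neither passed with the higher floor. The counts became 5 and 8 after quantile or loess normalization and 3 and 12 after ribosomal centring.

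The 19 called members differed in how firmly they stood. For 4 the dimmer array was under the floor, for 6 it lay between the floor and the array median, and for 9 both arrays were at or above the median. The calls of 12 genes were the same with the deposited scaling, quantile normalization, loess, ribosomal centring and the higher floor. Of these, 4 were higher in cortex (Acta1, Krt8, Krt34 and Myo1f) and 8 in epithelium (Actn4, Arpc1b, Arpc5, Krt19, Myh9, Myl2, Myo7a and Tpm1). Ribosomal centring shifts every log2 difference above the floor by -0.906, so it can remove a cortex call but not an epithelial one. It kept 5 of the 10 cortex calls and all 9 epithelial calls. The split of 4 to 8 therefore depends on including that setting and does not show that epithelial calls are firmer. None of the 19 had another probe, so no call has a technical repeat. Among the 32 members at or above the median on both arrays and under the limit, the sign of 10 differed between the deposited, quantile and loess scalings. A further 9 turned only with ribosomal centring, which moves every gene above the floor by the same amount.

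**Figure D5:**
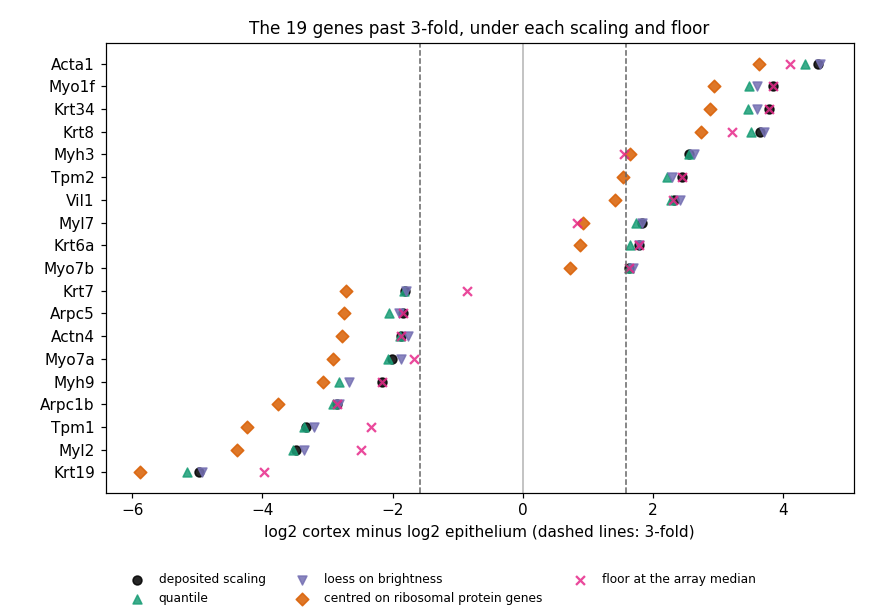
The log2 difference (x axis, cortex minus epithelium) of the 19 members past 3-fold under the deposited scaling, 3 other scalings and a higher floor, with dashed lines at 3-fold. No gene changes side, and 7 genes cross inside the 3-fold lines in at least 1 setting.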

How the data were processed

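Poly(A) RNA of lens cortical fibers and lens epithelium was measured on 1 CodeLink array each (2 samples in all), per the labels. The deposited intensities were normalized by the authors on a linear scale, with array medians of 0.998 on both arrays; the sources used here do not give the background and scaling steps or the software version. Of 19819 probes, 15120 had 1 gene symbol in the platform annotation, 38 had several and 4661 had none. All 90 member genes matched the RefSeq gene table of GRCm38.p6 by Entrez identifier.

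The deposited scaling was kept. Values under 0.5 of the array median (0.499 on both arrays) were set to that floor before taking log2. Each gene was represented by its probe with the highest mean log2 value. Of the 3 members with several probes, Actg1 alone had more than 1 above the floor on both arrays. The number of arrays limits the precision, and no p-value was computed. The genes named are the members past 3-fold, those at or above the median on both arrays and those listed singly in the rule. Other members outside these classes, such as Actn2, Myh8, Krt14 and Krt18, are named beside them. Up to 6 genes past 3-fold of each further list are also named. Further genes of those lists, such as Pls3, Coro1b, Limk2, Pkp4, Pxn and Fhl1, were picked after their values were seen. The members, lists and limits were chosen with earlier results of these data known. Other settings tried were 3 scalings (quantile, loess on brightness with a span of 0.3, and centring on genes of ribosomal proteins), dropping the floor or raising it to the array median, averaging a gene's probes, limits of 2-fold and 5-fold, and dropping the filter on dim genes. A further gene list is not reported here. The calling was tested on simulated data. Changes were added there only to genes well above the median on both arrays, with noise absent or below the pooled probe SD of 1.10. Recovery of changes in dim genes was therefore not tested. Python 3.11.15, numpy 2.4.6, pandas 2.3.3, statsmodels 0.14.6 and matplotlib 3.10.9 were used.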

Additional observations from a re-analysis of the deposited data

How the results depend on the processing

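With 1 array per population, no library could be left out, and no paired analysis was possible because each group holds 1 sample. Centring on ribosomal protein genes gave 5 members higher in cortex and 14 in epithelium, beside 4.34% and 19.9% of all genes. Among them were 1 actin system gene and 2 myosins in cortex and 6 myosins in epithelium. This centring turned the median negative, from 0.42 to -0.48 for all members and from 0.21 to -0.69 for the actin system. The median went from 0.51 to -0.40 for myosins and from 0.49 to -0.41 for intermediate filaments. Over all genes above the floor it went from 0.07 to -0.83, since this centring lowers every difference above the floor by the same amount. Quantile normalization turned the median of all members to -0.031 and of the actin system to -0.29, and loess turned the actin system to -0.28. With the floor at the array median, 2 myosins were higher in cortex and 1 intermediate filament gene in epithelium. A 2-fold limit gave 16 members in cortex and 14 in epithelium, with 7 intermediate filament genes in cortex and 6 myosins in epithelium. A 5-fold limit left 4 members in epithelium, of which 2 were actin system genes, 1 a myosin and 1 an intermediate filament gene, and 2 myosins in cortex. Requiring the brighter array to reach its median changed no count, because 3-fold over the floor already lies above the median. For the 19 called members, 155 values under the alternatives kept the call and 16 lost it, and no called gene changed direction. Many of the 155 were fixed in advance. Dropping the floor, averaging probes, the 2-fold limit and dropping the filter on dim genes could remove none of these calls. The 155 is therefore not a measure of how firm the calls are. For the 34 uncalled genes followed singly, 287 values stayed uncalled, some with the sign turned (as for Myl6, Actg1 and Vim), and 19 gained a call. Signals near background limit the folds of the 10 called genes whose dimmer value lay under the array median.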
